A study of Mus musculus with 6 samples.

Results

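The genes described were Ly6g, Ly6c1, Ly6c2, Ly6a, Ly6e and Cd177, taken by symbol from the gene list of the count matrices, 6 of 32285 genes. Ly6g, Ly6c1, Ly6c2, Ly6a and Ly6e encode small glycosylphosphatidylinositol (GPI)-anchored surface proteins of the Ly6/uPAR family, and Cd177 encodes a GPI-anchored neutrophil glycoprotein with the same kind of fold. Their levels were read in CD11b+ bone marrow cells flushed from the femur or the mandible of 2-month-old C57Bl/6 mice and enriched on magnetic beads, with 3 libraries per site. Femur replicate 1 came from a female and the other 5 libraries from males, so a fit without femur replicate 1 compares males alone. The labels give femurs and tibiae as the source of the femur libraries, whereas the methods give femurs alone, and the number of mice behind a library is not stated in either, so p-values measure the spread between these libraries.

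Ly6G marks neutrophils and Ly6C marks the classical inflammatory monocytes, and the Gr-1 antibody binds both antigens, which is why flow cytometry separates granulocytic from monocytic myeloid cells by the pair. In mice Ly6C is the product of Ly6c1 and Ly6c2, of which Ly6c2 is the myeloid gene and Ly6c1 is known from endothelium and lymphocytes. Ly6a encodes Sca-1, used to sort stem cells and induced by interferon. Ly6e encodes another interferon-induced member of the family. CD177 sits on neutrophils, and the human protein binds PECAM-1 and presents proteinase 3 beside the CD11b/CD18 integrin.

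In all, 69776 cells that the authors kept were read, with 82962160 to 244946998 UMIs (unique molecular identifiers, each a counted molecule) per library and a median of 6924 to 9158 UMIs per cell. In femur replicate 1, 18.5% of the deposited barcodes were not among the cells the authors kept, and in the others 1.88 to 5.14%. The paper states a loss per sample well below that of femur replicate 1. Each pair of libraries had 15 to 70 kept cell barcodes in common. Cells fell in the 9 clusters the authors numbered 0 to 8. Clusters 0 to 4 carried neutrophil genes: Camp, a granule protein of maturing neutrophils, averaged 43246 CPM (UMIs per 1000000 UMIs of the summed cells) in cluster 4 and 1546 CPM in cluster 1, while the receptor Csf3r averaged 189.98 and 2659 CPM there. Cluster 5 carried the monocyte receptor Ccr2 (748 CPM) and cluster 6 the B cell genes, with a sum of 5 B cell markers of 6392 to 8606 CPM in the femur libraries and 8531 to 11981 CPM in the mandible libraries. Cluster 8 was the smallest in cells, with 11 in femur replicate 3. Cluster 6 held 39 cells in femur replicate 1, and the values of both clusters are imprecise.

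Ly6e, Ly6a, Ly6c1, Ly6c2 and Ly6g lie within 204076 bases of chromosome 15 (mm10, annotation GENCODE vM21), a stretch with 6 protein-coding genes, the sixth being Ly6i. Ly6e spans chr15:74955051-74959905 on the plus strand and Ly6a chr15:74994877-74998031 on the minus strand. Ly6c1 spans chr15:75044018-75048830 and Ly6c2 chr15:75108158-75111970, both on the minus strand, and Ly6g spans chr15:75155240-75159126 on the plus strand. Cd177 lies apart at chr7:24743983-24760311 on the minus strand. No other annotated gene overlapped any of the 6.

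The start regions of 4 of the genes are shown because Ly6g, Ly6c1 and Ly6c2 are close copies, of which Ly6g and Ly6c2 were highest in different clusters, and Cd177 lies outside their locus but was highest in the same cluster as Ly6g. Each window runs from 250 bases before to 50 bases after the transcription start, read 5′ to 3′ on the gene's own strand, from RefSeq on GRCm38.p6 (mm10), at chr15:75155011-75155310 on the plus strand for Ly6g, chr15:75048788-75049087, chr15:75111922-75112221 and chr7:24760262-24760561 on the minus strand for Ly6c1, Ly6c2 and Cd177. Capitals mark GAGGAAGT, a binding sequence of ETS-family factors, TATAAA, and the 16 bases GATGCCAGCTGGGAGG, the longest run that the windows of Ly6g, Ly6c1 and Ly6c2 share, chosen after the sequences were seen.
Ly6g: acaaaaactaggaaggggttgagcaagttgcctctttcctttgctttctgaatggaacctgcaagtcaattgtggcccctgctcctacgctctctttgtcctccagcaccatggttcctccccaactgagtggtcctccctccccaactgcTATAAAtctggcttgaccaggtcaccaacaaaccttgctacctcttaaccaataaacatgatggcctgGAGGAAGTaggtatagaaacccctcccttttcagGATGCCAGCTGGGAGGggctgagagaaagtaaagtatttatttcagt
Ly6c1: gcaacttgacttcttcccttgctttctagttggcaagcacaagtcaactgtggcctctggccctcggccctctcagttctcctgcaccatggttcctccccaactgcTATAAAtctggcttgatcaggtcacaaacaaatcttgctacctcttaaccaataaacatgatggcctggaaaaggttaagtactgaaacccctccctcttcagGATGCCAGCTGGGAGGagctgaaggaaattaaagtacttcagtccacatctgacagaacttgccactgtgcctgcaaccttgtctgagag
Ly6c2: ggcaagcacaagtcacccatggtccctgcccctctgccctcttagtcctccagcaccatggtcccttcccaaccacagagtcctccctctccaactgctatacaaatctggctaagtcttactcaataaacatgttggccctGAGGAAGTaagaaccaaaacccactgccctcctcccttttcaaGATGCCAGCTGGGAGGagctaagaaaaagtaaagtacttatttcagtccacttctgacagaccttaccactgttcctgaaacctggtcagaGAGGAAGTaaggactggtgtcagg
Cd177: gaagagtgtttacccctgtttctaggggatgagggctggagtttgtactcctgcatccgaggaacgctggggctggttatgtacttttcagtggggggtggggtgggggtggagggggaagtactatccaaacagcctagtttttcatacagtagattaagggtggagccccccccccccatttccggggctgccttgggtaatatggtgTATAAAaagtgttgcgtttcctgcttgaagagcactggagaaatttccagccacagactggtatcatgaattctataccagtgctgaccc

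Aligned, the Ly6g window matched that of Ly6c1 at 216 of 250 positions (86.4%) and that of Ly6c2 at 184 of 221 (83.3%), and Ly6c1 matched Ly6c2 at 214 of 260 (82.3%). Offsets give the leftmost base of a match, with the transcription start at 0. The 16-base run was found from +3 in Ly6g, from -40 in Ly6c1 and from -65 in Ly6c2, and in 7 of 32817 promoters of the table (0.0213%). GAGGAAGT, searched on both strands, was found at -31 in Ly6g and at -108 and +26 in Ly6c2, against 3.2% of all promoters, and had no match in the Ly6c1 and Cd177 windows. TATAAA, in 13.6% of promoters, was found at -99 in Ly6g, -143 in Ly6c1 and -40 in Cd177. TTGCNNAA, a C/EBP sequence held by 10.8% of promoters, had 1 match, on the reverse strand at -232 of Ly6g. CCAAT, in 37.4% of promoters, stood at -51 in Ly6g and -95 in Ly6c1. A match describes letters only, and the windows of Ly6a and Ly6e were not analysed here.

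The assay counts tags near the 3′ end, so how far these ends are unique bears on the counts. Over the last 400 bases of the longest transcripts, Ly6c1 and Ly6c2 were identical at 386 of 393 aligned positions (98.2%), and 23.4% of the 50-base words of Ly6c1 also occurred in Ly6c2. For Cd177, 43.6% of the words occurred in the related loci BC049730 and Gm4763. Ly6g, Ly6a and Ly6e had no 50-base word in another gene. Reads of Ly6c1 and Ly6c2 that fall on shared words cannot be told apart, and CPM levels were compared between clusters and sites for 1 gene at a time.

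Ly6g, the neutrophil antigen, was highest in cluster 0, the Camp-rich neutrophils, at 771 ± 50.9 CPM (SD, n = 6 libraries), where the libraries read 724, 758 and 858 CPM as lowest, median and highest. Cluster 3 followed at 581 ± 57.4 and cluster 7 at 436 ± 81.4 CPM, and the ranges of these 3 clusters did not overlap. From cluster 7 on, neighbours overlapped: cluster 2 measured 434, cluster 8 402, cluster 1 289, cluster 4 258, cluster 5 159.8 and cluster 6 96.8 CPM. Cluster 4, with the most Camp of all, thus stood at a lower Ly6g level than cluster 0 in 6 of 6 libraries.

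Cd177, the other neutrophil antigen, was also highest in cluster 0, at 1061 ± 104 CPM, with libraries from 988 to 1265 CPM. Its order then differed from that of Ly6g: cluster 3 measured 855, cluster 4 755, cluster 7 654, cluster 8 583, cluster 2 462, cluster 5 302, cluster 1 247 and cluster 6 162 CPM, and every pair of neighbours overlapped. The pair of genes parted in cluster 4. With each cell thinned to 1000 UMIs, 16.0 to 24.0% of the cells of cluster 4 had a Ly6g UMI and 44.3 to 55.1% a Cd177 UMI across the 6 libraries, against 46.4 to 53.1% and 61.6 to 66.6% in cluster 0. Both were seen in the same thinned cell in 31.1 to 33.4% of cluster 0, against 30.9 to 33.3% if the genes were counted independently of each other. Cluster 3 had medians of 23.0% and 23.2%. In clusters 1, 2, 4 and 7 every library had more cells with both than under independence. The medians there were 4.29, 10.6, 11.8 and 12.3%, against 2.80, 8.64, 10.5 and 9.30%.

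Ly6c2, the myeloid Ly6C gene, was highest in cluster 5 at 1248 ± 213 CPM, but was not confined to it. Cluster 3 measured 1041 ± 109 and cluster 0 908 ± 47.7 CPM, and these top 3 overlapped in turn, while cluster 0 lay above cluster 4 (763 CPM) without overlap. Clusters 2, 7, 8, 1 and 6 followed at 642, 589, 526, 392 and 173 CPM. Ly6c2 transcripts were counted at high levels in the same neutrophil clusters as Ly6g.

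Ly6e was highest in clusters 5 and 6. It stood at 1131 ± 121 CPM in cluster 5 and 918 ± 199 CPM in cluster 6, whose ranges overlapped, and both lay above every other cluster without overlap. Cluster 1 measured 245, cluster 7 129, cluster 2 123 and cluster 8 73.5 CPM, and the Camp-rich clusters were lowest, with 47.0 in cluster 4, 39.7 in cluster 3 and 31.5 CPM in cluster 0. Ly6a was low throughout: cluster 6 measured 91.3 ± 54.8 CPM with libraries from 37.1 to 161, cluster 5 18.3 ± 5.01 CPM with libraries from 12.8 to 25.1, and no other cluster averaged above 2.24 CPM. The ranges of clusters 6 and 5 did not overlap each other or, for cluster 5, that of the next cluster.

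**Figure D1:**
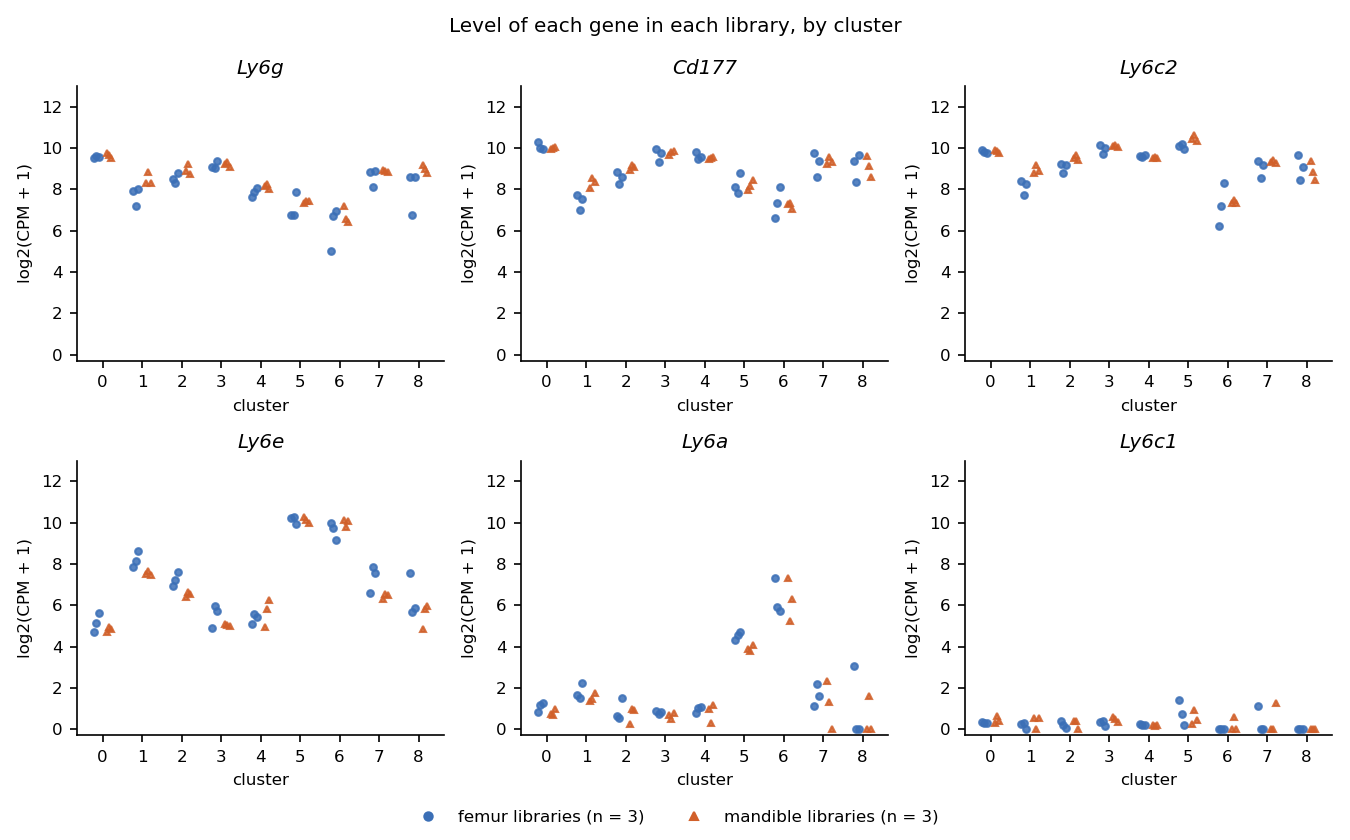
Level of each gene as log2(CPM + 1) in the 3 femur libraries (blue circles) and 3 mandible libraries (orange triangles) of each of the 9 clusters on the x axis. Ly6g and Cd177 peak in cluster 0, Ly6c2 in cluster 5 with cluster 3 close by, Ly6e in clusters 5 and 6, Ly6a in cluster 6, and Ly6c1 lies near 0 in every cluster.

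Ly6c1, the endothelial and lymphoid Ly6C gene, was nearly absent from the counts, with 194 UMIs in 176 cells, 0.252% of all kept cells. Only 7 cells had 2 or more Ly6c1 UMIs, 25 UMIs in all. The SingleR labels from the ImmGen reference, deposited with the cells, called 10 cells endothelial, all in cluster 5, and 2 of these held 9 of the UMIs, 8 of them in 1 cell. A cell labelled NKT held 5. The remaining Ly6c1 UMIs were scattered, among them 65 neutrophil-labelled cells of cluster 0, 26 neutrophil-labelled cells of cluster 4 and 23 monocyte-labelled cells of cluster 5. Given the shared 3′ words, single Ly6c1 UMIs in cells rich in Ly6c2 are uncertain as to their gene.

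Within cluster 5 the ImmGen labels split 7354 cells into 3734 labelled monocytes (50.8%), 2529 neutrophils, 482 macrophages, 174 dendritic cells (DC) and smaller sets, and the genes differed widely among them. These levels are descriptions, since the labels were made from the same transcripts. In neutrophil-labelled cells Ly6g read 304, 231 and 333 CPM in femur replicates 1 to 3 and 416, 359.9 and 333 CPM in mandible replicates 1 to 3. In monocyte-labelled cells it read 7.52, 15.0 and 38.4 CPM in femur replicates 1 to 3 and 15.4, 22.7 and 14.4 CPM in mandible replicates 1 to 3. The labels did not overlap. Cd177 ranged from 391 to 628 CPM in the neutrophil-labelled and 76.9 to 114 CPM in the monocyte-labelled cells, again without overlap. In macrophage-labelled cells Ly6g ranged from 12.2 to 40.3 and Cd177 from 15.4 to 71.3 CPM, and in DC-labelled cells from 0 to 15.7 and 0 to 27.9 CPM.

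Ly6c2 was highest under the monocyte label, with 1541 to 2365 CPM in monocyte-labelled cells, 777 to 1068 in neutrophil-labelled, 171 to 434 in macrophage-labelled and 48.0 to 533 in DC-labelled cells. Ly6e was highest in the monocyte-labelled cells (1591 to 1743 CPM) without overlap with the neutrophil-labelled (567 to 816 CPM), the macrophage-labelled (977 to 1543 CPM) or the DC-labelled cells (447 to 1348 CPM). Among the 4 labels with at least 10 cells in every library, Ly6a had its highest mean in DC-labelled cells, at 51.4, 164 and 126 CPM in the femur libraries and 102, 53.3 and 112 CPM in the mandible libraries. It ranged from 8.61 to 188 CPM among macrophage-labelled cells, where femur replicate 3 alone exceeded 51.0 CPM, and from 4.66 to 14.0 CPM among neutrophil-labelled cells. The neutrophil-labelled cells of cluster 5 held a median of 15445 UMIs against 9328.5 for the monocyte-labelled, and cells holding more than 1 cell's RNA were not marked.

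**Figure D2:**
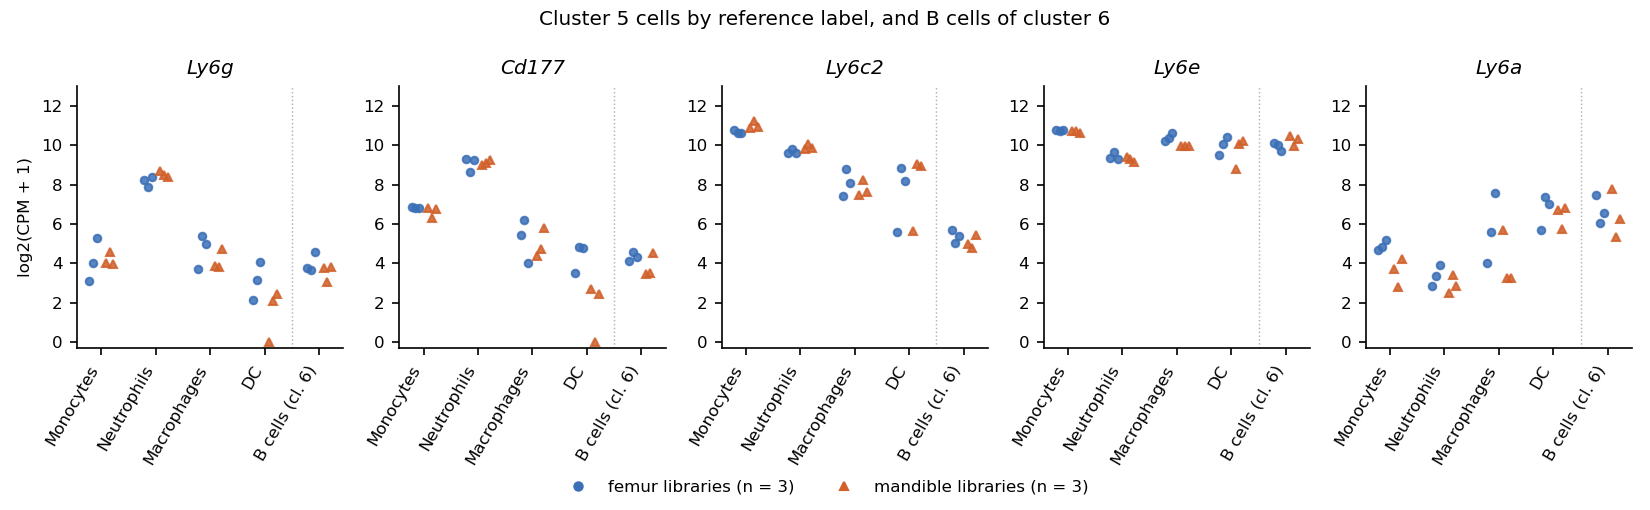
Level of 5 genes as log2(CPM + 1) in cluster 5 cells by ImmGen label and, right of the dotted line, in the B-labelled cells of cluster 6, for 3 femur (circles) and 3 mandible libraries (triangles). Ly6g and Cd177 are highest under the neutrophil label and Ly6c2 and Ly6e under the monocyte label, and in the B-labelled cells Ly6g and Cd177 lie at the level of macrophage-labelled cells or lower.

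The few Ly6g counts in monocyte-labelled cells were set beside those in the B-labelled cells of cluster 6, a type that lacks Ly6G (858 cells, median 3894.5 UMIs, against 9328.5 in the monocyte-labelled). As counted, 11.8% ± 5.72 (SD, n = 3) of femur and 8.86% ± 0.983 (SD, n = 3) of mandible monocyte-labelled cells had a Ly6g UMI, and 7.20% ± 5.94 (SD, n = 3) and 3.5% ± 1.17 (SD, n = 3) of the B-labelled cells. Thinned to 1000 UMIs per cell the shares were 2.16% ± 1.14 (SD, n = 3) and 1.48% ± 0.627 (SD, n = 3), against 3.02% ± 1.53 (SD, n = 3) and 1.14% ± 1.10 (SD, n = 3). The thinned monocyte shares lay within 1 SD of those of the B-labelled cells at each site. Cluster 6 as a whole held only 39, 158 and 60 cells in femur replicates 1 to 3, so its shares are imprecise. The comparison therefore cannot decide whether monocytes express Ly6g. Thinning left out 3 monocyte-labelled and 1 B-labelled cells with fewer UMIs. Cd177 had higher shares than in the B-labelled cells: thinned, 7.89% ± 1.63 (SD, n = 3) and 7.96% ± 2.52 (SD, n = 3) of monocyte-labelled cells had a UMI, against 1.32% ± 1.19 (SD, n = 3) and 0.535% ± 0.691 (SD, n = 3) of B-labelled cells. Pooled over all libraries, and so without a spread between them, the 392 monocyte-labelled cells with a Ly6g UMI (10.5%) carried 6018 CPM of Camp. Those without one carried 512 CPM, and the median cell held 10692 and 9199 UMIs. The source of these counts was not tested.

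The site comparison asked whether the genes differed between mandible and femur within a cluster, on counts summed per library and tested with the edgeR quasi-likelihood test, with p-values adjusted over all genes tested in that cluster. No gene of the 6 passed a false discovery rate of 0.05 in any cluster: 42 of 54 gene and cluster pairs were tested and 0 were called, where 0.0284% of all genes tested in the 9 clusters were. At an unadjusted p under 0.05 there were 9, against 8.42% of all genes, and DESeq2 called 3 of 47, all in cluster 1, against 0.642%. The 3 femur and 3 mandible libraries did not overlap in 12 of the 42 pairs, 7 with the mandible above and 5 below, where 12.9% of all genes tested did not. Of these 12, 4 were in cluster 1 and 3 in cluster 2.

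In cluster 1, which had the most Csf3r and the least Camp of the neutrophil clusters, Ly6g, Cd177 and Ly6c2 lay higher in the mandible and Ly6e lower. Ly6g measured 238, 147 and 259.7 CPM in femur replicates 1 to 3 and 315, 458 and 319 CPM in mandible replicates 1 to 3. The lowest mandible library stood above the highest femur library. The means were 215 ± 59.6 CPM (SD, n = 3) and 364 ± 81.3 CPM (SD, n = 3), with a log2 fold change (mandible over femur) of 0.89 ± 0.27 (SE), an unadjusted p of 0.00828 and an edgeR adjusted p of 0.197.

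Cd177 measured 207, 129 and 182 CPM in femur replicates 1 to 3 and 265, 372 and 324 CPM in mandible replicates 1 to 3 in cluster 1, again without overlap. Its fold change was the largest of the 4 genes, 1.02 ± 0.23 (SE) on the log2 scale, with an edgeR adjusted p of 0.121. Ly6c2 measured 342, 212 and 309 CPM in femur replicates 1 to 3 and 440.1, 576 and 469.9 CPM in mandible replicates 1 to 3, a log2 fold change of 0.92 ± 0.22 (SE) with an edgeR adjusted p of 0.144. Femur replicate 2 was the lowest library for all 3 genes and mandible replicate 2 the highest. Ly6e went the other way, with 227, 282 and 396 CPM in femur replicates 1 to 3 and 185, 202 and 177 CPM in mandible replicates 1 to 3, a log2 fold change of -0.55 ± 0.22 (SE) and an adjusted p of 0.312.

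In cluster 1, 4.88% of all genes tested lay higher in all mandible libraries and 16.9% lower, and 13.6% had an unadjusted p under 0.05, so more genes shared the position of Ly6e than that of the other 3. edgeR called 0.0842% of genes there and DESeq2 2.73%. By DESeq2 the adjusted p was 0.037 for Ly6g, 0.00264 for Cd177 and 0.00921 for Ly6c2. Leaving out 1 library at a time gave log2 fold changes of 0.64 to 1.06 for Ly6g, 0.81 to 1.17 for Cd177, 0.69 to 1.06 for Ly6c2 and -0.72 to -0.28 for Ly6e, none past the threshold. Between the libraries whose names share the number 6 (femur replicate 2 and mandible replicate 1) the log2 ratios of Ly6g, Cd177 and Ly6c2 were 1.09, 1.05 and 1.05, and between those numbered 7 (femur replicate 3 and mandible replicate 2) 0.82, 1.03 and 0.90.

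Other neutrophil genes were read beside these values. Of the 8 neutrophil markers, Camp, Ltf, Ngp and Csf3r are given singly, chosen after their values were seen, and none of these passed the test. S100a8, S100a9, Mmp8 and Retnlg enter only the sum. The 8 neutrophil markers summed to 159897 to 230257 CPM in the femur libraries and 218262 to 280109.9 CPM in the mandible libraries in cluster 1, and the sites overlapped. Camp measured 786, 497 and 1511 CPM in the femur libraries and 1185, 3618 and 1677 CPM in the mandible libraries, also with overlap and with an adjusted p of 0.288, and the granule genes Ltf and Ngp had log2 fold changes of 1.54 ± 0.46 (SE) and 1.52 ± 0.45 (SE), without overlap and with adjusted p of 0.197 and 0.191. Csf3r, the receptor for granulocyte colony-stimulating factor, was at -0.39 ± 0.16 (SE). Camp was also higher in cluster 0 than in cluster 1, at 30396 CPM, as were Ly6g, Cd177 and Ly6c2, and Ly6e was lower there. The T and NK markers summed to 7.55 to 11.3 CPM in the femur libraries and 13.7 to 16.2 CPM in the mandible libraries, with Cd3e at 0. The part of these neutrophil, T and NK genes in the site values of cluster 1 was not tested. A sum per library also cannot tell fewer cells with the transcript from fewer transcripts per cell.

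Shares of cells with a UMI do not separate these either, since at this depth they follow the mean level. In cluster 1, 41.0% ± 6.15 (SD, n = 3) of femur and 55.2% ± 4.16 (SD, n = 3) of mandible cells had a Ly6g UMI, and thinned to 1000 UMIs 14.6% ± 3.78 (SD, n = 3) and 22.9% ± 4.39 (SD, n = 3). For Cd177 the thinned shares were 12.7% ± 2.57 (SD, n = 3) and 19.4% ± 3.77 (SD, n = 3), and the sites overlapped, with femur replicate 1 at 15.5% and mandible replicate 1 at 15.0%. For Ly6c2 they were 17.7% ± 3.47 (SD, n = 3) and 28.5% ± 4.75 (SD, n = 3), and neither Ly6c2 nor Ly6g overlapped. The B-labelled cells (median 3894.5 UMIs, against 4591 in cluster 1) gave thinned shares of at most 3.02% for Ly6g, 1.32% for Cd177 and 3.56% for Ly6c2 as means of a site, so all 3 genes in cluster 1 stood above those shares. Thinning left out 12 of the 15824 cells of cluster 1.

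**Figure D3:**
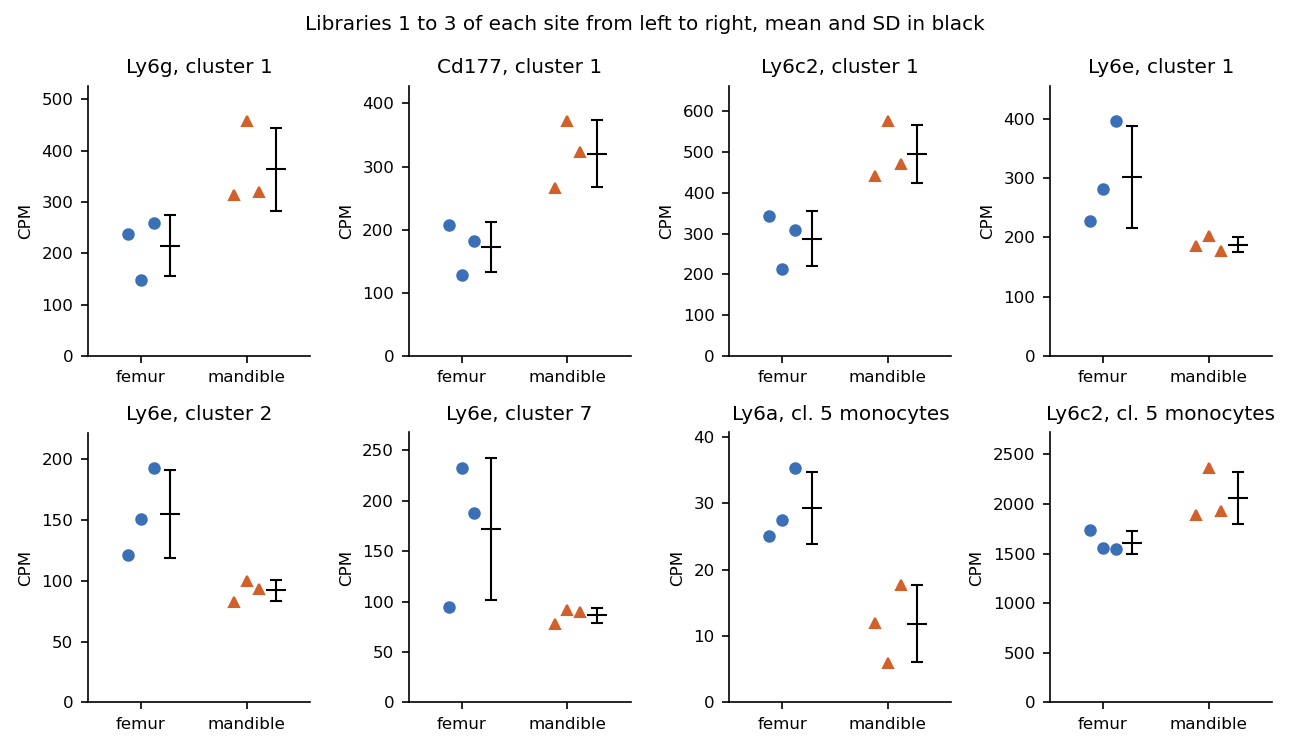
CPM of 4 genes in cluster 1, of Ly6e in clusters 2 and 7 and of Ly6a and Ly6c2 in the monocyte-labelled cells of cluster 5, with replicates 1 to 3 of each site as points and the mean and SD beside them. In every panel the femur and mandible libraries do not overlap, and Ly6e in cluster 7 is nearest to overlap, with femur replicate 1 at 94.6 CPM and mandible replicate 2 at 91.3 CPM.

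In cluster 2 these 4 genes had the signs they had in cluster 1, with smaller fold changes for Ly6g, Cd177 and Ly6c2 and a larger one for Ly6e. Ly6e measured 121, 151 and 193 CPM in femur replicates 1 to 3 and 82.8, 99.8 and 93.4 CPM in mandible replicates 1 to 3, without overlap, at a log2 fold change of -0.73 ± 0.22 (SE) and an edgeR adjusted p of 0.217. Cd177 measured 453, 301 and 389 CPM in the femur libraries and 494, 584 and 549 CPM in the mandible libraries, at 0.54 ± 0.20 (SE) and an adjusted p of 0.303, and Ly6c2 605, 445 and 581 CPM in the femur libraries and 719, 811 and 689 CPM in the mandible libraries, at 0.48 ± 0.20 (SE) and an adjusted p of 0.362. Neither gene overlapped between sites, where 6.48% of all genes in cluster 2 lay wholly higher in the mandible and 8.41% lower. Ly6g overlapped, at 0.45 ± 0.23 (SE) with an adjusted p of 0.477. With 1 library left out the values in cluster 2 ranged from 0.25 to 0.68 for Ly6g, 0.35 to 0.66 for Cd177, 0.30 to 0.60 for Ly6c2 and -0.89 to -0.45 for Ly6e. Camp in cluster 2 measured 1846, 1084 and 2540.5 CPM in the femur libraries and 2779.9, 4841 and 4488 CPM in the mandible libraries, without overlap. The 8 neutrophil markers together overlapped, at 232161 to 334095 CPM in the femur libraries and 280410 to 346775 CPM in the mandible libraries. The T and NK markers summed to 10.4 to 13.4 and 15.8 to 17.1 CPM, with Cd3e and Klrb1c at 0. Their part was not tested there either.

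Ly6e was also below the femur in all mandible libraries of cluster 7, with 94.6, 233 and 188 CPM in femur replicates 1 to 3 and 77.4, 91.3 and 89.8 CPM in mandible replicates 1 to 3, a log2 fold change of -0.92 ± 0.31 (SE) and an edgeR adjusted p of 0.651, beside 7.91% of all genes of that cluster. Without femur replicate 1, the female library, which was the lowest of its site, the value was -1.23 with an adjusted p of 0.0319, where 0.238% of all genes were called. Ly6e had negative fold changes in 7 of 9 clusters, from -1.01 to 0.41. In cluster 8 Ly6g measured 384, 107 and 381 CPM in the femur libraries and 579, 512 and 447 CPM in the mandible libraries, at 0.88 ± 0.52 (SE) with an adjusted p of 1, where 1.26% of genes lay wholly higher. These values came from 467, 13 and 60 UMIs in the femur libraries and 126, 248 and 50 UMIs in the mandible libraries. The erythroid markers of cluster 8 summed to 27532 to 184454 CPM in the femur libraries and 127180 to 210504 CPM in the mandible libraries. Their part in the Ly6g value was not tested. Ly6g had a positive fold change in 9 of 9 clusters, with a median of 0.29 and a range of 0.05 to 0.89, and Ly6c2 in 6 of 9. The clusters come from the same 6 libraries, so these counts of signs, that of Ly6e included, are not counts of separate readings. Over all cells Ly6g was at 0.09 with an edgeR adjusted p of 0.934, and the sites overlapped. With 1 library left out the Ly6g value reached -0.077 in cluster 3, -0.15 in cluster 5 and -0.15 in cluster 6. In cluster 4 Ly6c2 measured 789.9, 766 and 806 CPM in the femur libraries and 733, 752 and 734 CPM in the mandible libraries, which did not overlap although the log2 fold change was -0.06 ± 0.10 (SE), with an adjusted p of 0.832 and 10.1% of genes wholly lower. Over all cells summed, 0 of the 6 genes were called and 0 had an unadjusted p under 0.05, beside 0% of all genes called by edgeR. DESeq2 called 0 of the 6 and 1.76% of all genes. Ly6c2 alone did not overlap, at 834, 726 and 780.1 CPM in the femur libraries and 889, 951 and 858 CPM in the mandible libraries, beside 4.4% of genes wholly higher, and its log2 fold change was 0.16 ± 0.17 (SE) with an edgeR adjusted p of 0.833.

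**Figure D4:**
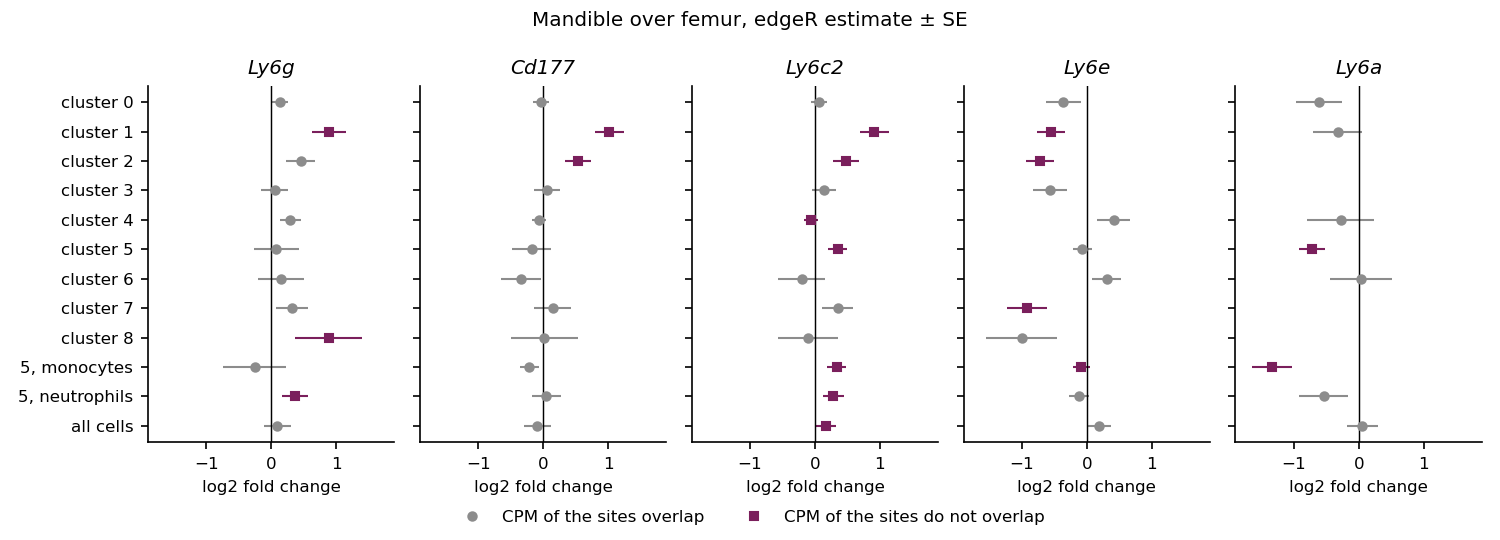
Log2 fold change of mandible over femur (edgeR estimate, bar = SE, 3 libraries per site) of 5 genes in each cluster, in the monocyte- and neutrophil-labelled cells of cluster 5 and over all cells. Purple squares mark values whose femur and mandible libraries do not overlap, none of the values passes a false discovery rate of 0.05, and the largest in size is Ly6a in monocyte-labelled cells.

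Within the labels of cluster 5, Ly6a, the Sca-1 gene, had the smallest unadjusted p in monocyte-labelled cells. It measured 25.0, 27.5 and 35.3 CPM in femur replicates 1 to 3 and 12.0, 5.96 and 17.6 CPM in mandible replicates 1 to 3, from 123, 217 and 205 UMIs and 74, 37 and 109 UMIs. Every mandible library lay below every femur library, with means of 29.3 ± 5.39 CPM (SD, n = 3) and 11.9 ± 5.83 CPM (SD, n = 3). The log2 fold change was -1.34 ± 0.31 (SE), with an unadjusted p of 0.00188 and an edgeR adjusted p of 0.114, and DESeq2 gave an adjusted p of 0.0053. Of all genes tested in these cells 7.18% lay wholly lower and 10.6% wholly higher in the mandible, edgeR called 0.0968% and DESeq2 2.5%. In macrophage-labelled cells the fold change of Ly6a was larger in size but less precise, at -1.59 ± 0.81 (SE) with an unadjusted p of 0.0717 and an edgeR adjusted p of 0.751, and the sites overlapped, at 15.4, 48.1 and 188 CPM in the femur libraries and 51.0, 8.61 and 8.64 CPM in the mandible libraries. With single libraries left out it ranged from -3.22 to -0.21. In the same cells the endothelial markers summed to 39.7 to 45.0 CPM in the femur libraries and 17.2 to 33.4 CPM in the mandible libraries and the plasmacytoid dendritic markers to 451 to 569 and 628 to 832 CPM, both without overlap, and their part was not tested. Ly6e there measured 1166, 1296 and 1543 CPM in the femur libraries and 998.8, 977 and 1008 CPM in the mandible libraries, without overlap, at -0.51 ± 0.23 (SE) with an unadjusted p of 0.046 and an edgeR adjusted p of 0.746.

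Leaving out 1 library at a time left the log2 fold change of Ly6a between -1.71 and -1.03, and the ratios between libraries of the same number were -1.19 for 6 and -2.57 for 7. Thinned to 1000 UMIs, 2.28% ± 0.202 (SD, n = 3) of femur and 0.656% ± 0.342 (SD, n = 3) of mandible monocyte-labelled cells had a Ly6a UMI. The summed plasmacytoid dendritic markers (Siglech, Ccr9, Tcf4 and Bst2) in the same cells were 308 to 322 CPM in the femur libraries and 238 to 280.2 CPM in the mandible libraries, the stem and progenitor markers 11.3 to 26.4 CPM in the femur libraries and 12.8 to 20 CPM in the mandible libraries and the endothelial markers 22.9 to 29.7 CPM in the femur libraries and 21.8 to 28.0 CPM in the mandible libraries, and their part in the Ly6a value was not tested. For cluster 5 as a whole Ly6a measured 18.8, 23.0 and 25.1 CPM in the femur libraries and 13.7, 12.8 and 16.1 CPM in the mandible libraries, at -0.72 ± 0.20 (SE) with an adjusted p of 0.606, beside 4.29% of genes wholly lower.

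Ly6c2, the myeloid Ly6C gene, measured 1739.8, 1552 and 1541 CPM in femur replicates 1 to 3 and 1887, 2365 and 1931 CPM in mandible replicates 1 to 3 in monocyte-labelled cells. The mandible libraries lay above the femur libraries without overlap, at a log2 fold change of 0.33 ± 0.14 (SE) with an edgeR adjusted p of 0.362. Ly6c2 was at 0.20 to 0.40 with 1 library left out. In cluster 5 as a whole it measured 1107, 1165 and 977 CPM in the femur libraries and 1397, 1571 and 1272 CPM in the mandible libraries, at 0.35 ± 0.15 (SE) and an adjusted p of 0.709, beside 7.32% of genes wholly higher. Over that whole cluster the erythroid markers summed to 141 to 549.6 CPM in the femur libraries and 580.0 to 1287 CPM in the mandible libraries, without overlap, and their part in the cluster 5 values of Ly6c2 and Ly6a was not tested. Ly6e in monocyte-labelled cells measured 1729, 1689 and 1743 CPM in the femur libraries and 1677, 1689 and 1591 CPM in the mandible libraries. Those values did not overlap, with mandible replicate 2 just below the lowest femur library, and the log2 fold change was -0.08 ± 0.12 (SE) with an adjusted p of 0.812. The 6 monocyte markers in these cells summed to 4865 to 5714 CPM in the femur libraries and 5901 to 6306 CPM in the mandible libraries, wholly higher like Ly6c2, and of these Ccr2 read -0.12 ± 0.16 (SE) and F13a1 0.45 ± 0.14 (SE). The part of these markers in the Ly6c2 value was not tested.

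Among neutrophil-labelled cells of cluster 5, Ly6c2 measured 777, 889 and 779.7 CPM in the femur libraries and 905, 1068 and 931 CPM in the mandible libraries, without overlap, at 0.28 ± 0.16 (SE) with an edgeR adjusted p of 1. Ly6g there read 0.37 ± 0.20 (SE) with an adjusted p of 1, also without overlap, beside 3.34% of genes wholly higher. That separation was narrow, with femur replicate 3 at 332.8 CPM and mandible replicate 3 at 333.4 CPM. In the same cells the 4 erythroid markers (globin genes and Alas2) summed to 60.6 to 235 CPM in the femur libraries and 1081 to 1889.7 CPM in the mandible libraries and the plasmacytoid dendritic markers to 121 to 152 and 155 to 159 CPM, both without overlap, and their part in these values was not tested. Across the 4 labels, 18 of 24 gene and label pairs were tested, 0 were called by edgeR, 3 had an unadjusted p under 0.05 and 6 did not overlap, 3 in each direction. Of all genes tested in these labels edgeR called 0.0644%, 8.23% had an unadjusted p under 0.05, 7.71% lay wholly higher in the mandible and 5.43% wholly lower. DESeq2 called 1, Ly6a, beside 0.898%. The difference between the neutrophil-labelled and monocyte-labelled site effects was tested itself, on 10930 genes with limma, and 0 genes passed. For Ly6a it was 0.97 ± 0.58 (SE) with an unadjusted p of 0.145 and an adjusted p of 0.655, and for Ly6c2 -0.04 ± 0.13 (SE).

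The cells of cluster 5 were sorted by whether they had a UMI of Ly6c2, of Ly6g, of both or of neither. A UMI records RNA and depends on depth, so these states are not the surface protein levels read in flow cytometry. Cells with Ly6c2 alone made up 47.2, 49.6 and 40.7% in the femur libraries and 51.6, 53.3 and 47.1% in the mandible libraries, and the sites overlapped. Cells with both made up 15.7, 24.2 and 42.5% in the femur libraries and 24.1, 28.6 and 32.3% in the mandible libraries, and the femur libraries ranged on both sides of the mandible libraries. Cells with Ly6g alone made up 3.76, 3.29 and 3.33% in the femur libraries and 1.68, 0.924 and 1.20% in the mandible libraries, without overlap, a difference of -2.19 percentage points. The exact 2-sided permutation test gave p = 0.1, the smallest that 3 against 3 libraries allow, and 0.4 adjusted over the 4 states. Thinned to 1000 UMIs that difference was -0.767 points (exact p = 0.6), and cells with Ly6c2 alone then made up 38.2, 42.9 and 41.9% in the femur libraries and 46.8, 54.8 and 46.9% in the mandible libraries, a difference of 8.49 points (exact p = 0.1, adjusted 0.2). Thinned cells with neither made up 53.3, 50.5 and 45.7% in the femur libraries and 45.2, 36.5 and 43.9% in the mandible libraries. Their difference was -7.99 points (exact p = 0.1, adjusted 0.2). The 4 states of a library share 1 total, so these differences are not separate readings.

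The states followed the labels in part. Of monocyte-labelled cells 69.2 to 72.1% in the femur libraries and 72.6 to 82.7% in the mandible libraries had Ly6c2 alone, without overlap. Those with both made up 4.92 to 14.3% across the 6 libraries, and the sites overlapped. Of neutrophil-labelled cells 43.0, 55.4 and 72.1% had both genes in femur replicates 1 to 3. In mandible replicates 1 to 3 the shares were 78.7, 77.7 and 80.2%, without overlap between sites. Neutrophil-labelled cells with Ly6g alone made up 0.761 to 7.91%, with every mandible library below every femur library. Both genes together was the most frequent of the 4 states of neutrophil-labelled cells in every library as counted. Thinned to 1000 UMIs it made up 7.46 to 11.3% in the femur libraries and 11.7 to 14.1% in the mandible libraries. Those ranges did not overlap, whereas the thinned shares of Ly6g alone overlapped between sites. The difference between sites in the states within a label was not tested.

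**Figure D5:**
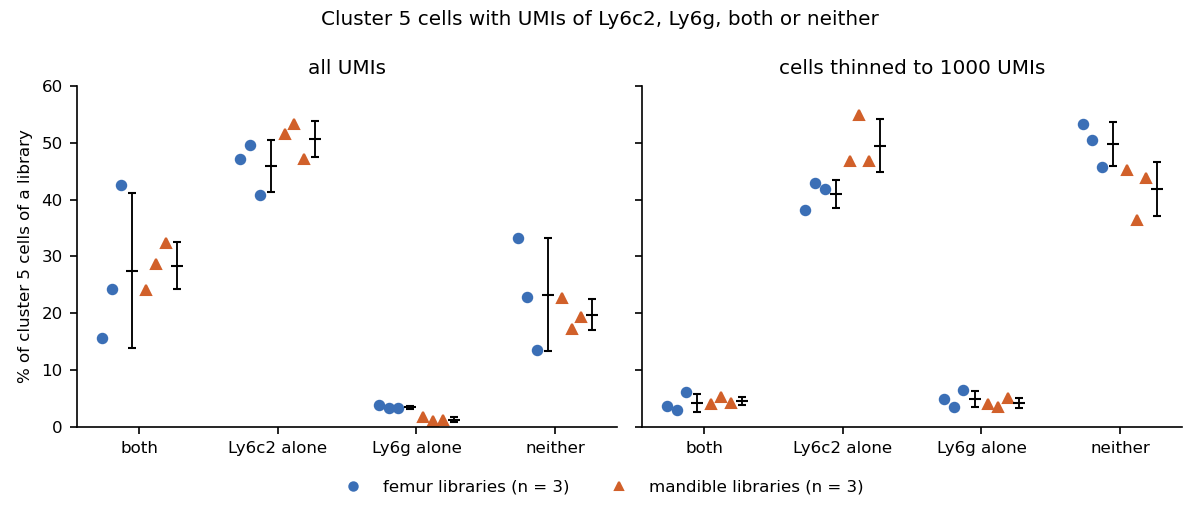
Percent of the cluster 5 cells of each library with UMIs of both Ly6c2 and Ly6g, of either alone or of neither, with all UMIs (left) and with each cell thinned to 1000 UMIs (right), for 3 femur (circles) and 3 mandible libraries (triangles) with mean and SD. Cells with both range from 15.7 to 42.5% among femur libraries. In every mandible library the thinned shares of Ly6c2 alone lie higher and those of neither lower than in the femur libraries.

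The other Ly6/uPAR genes gave little signal. Of 39 in the gene list 5 had 0 UMIs and 27 fewer than 100 UMIs over all libraries, and 7 averaged 10 CPM or more in a cluster. Ly6d, an early B lineage antigen, averaged 1433 CPM in cluster 6, where Lynx1, known for binding nicotinic receptors, averaged 38.1. Plaur, the urokinase receptor, averaged 849 CPM in cluster 2, Lypd6b 54.5 in cluster 1, Ly6g5b 15.5 in cluster 0 and the complement inhibitor Cd59a 19.1 in cluster 8. Ly6i, the neighbour of Ly6a, averaged 40.1 CPM in cluster 5 and measured 61.0, 61.0 and 52.4 CPM in the femur libraries and 55.7, 25.3 and 38.6 CPM in the mandible libraries in monocyte-labelled cells, at -0.57 ± 0.24 (SE) with an edgeR adjusted p of 0.336. edgeR called 0 of the 1 to 9 family genes tested in each cluster, beside 0.0284% of all genes over the clusters. In cluster 1, 6 were tested, with a median log2 fold change of 0.08 beside 0.0035 over all genes, and 1 in each direction had an unadjusted p under 0.05, as had 13.6% of all genes there.

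GPI anchoring attaches the proteins of all 6 genes to the membrane, and 28 of 30 listed genes of anchor synthesis were in the files. edgeR called 0 of the 22 tested in cluster 1, with 3 higher and 1 lower at an unadjusted p under 0.05 and a median log2 fold change of 0.09, where 13.6% of all genes had such a p and edgeR called 0.0842%. It called 0 of 28 in cluster 5, where it called 0% of all genes, with a median of 0.04 beside -0.01 over all genes. Of the partners of CD177, Itgam, Itgb2, Prtn3 and Pecam1, edgeR called 0 in any cluster, beside 0.0284% of all genes over the 9 clusters, and DESeq2 called Prtn3 in cluster 4, beside 0.642%. Prtn3, which encodes proteinase 3, averaged 819 CPM in cluster 4 and measured 673, 537 and 507 CPM in femur replicates 1 to 3 and 695, 1309.6 and 1191 CPM in mandible replicates 1 to 3 there. The sites did not overlap, beside 5.9% of all genes wholly higher, and the log2 fold change was 0.93 ± 0.21 (SE) with an edgeR adjusted p of 0.232 and a DESeq2 adjusted p of 0.000148. In cluster 4 the T and NK markers summed to 80.3 to 94.6 CPM in the femur libraries and 105 to 136 CPM in the mandible libraries and the B cell markers to 2.02 to 7.76 and 8.10 to 19.5 CPM, both without overlap, and their part in the Prtn3 and Ly6c2 values of that cluster was not tested. Without mandible replicate 1, the lowest of its site, the edgeR adjusted p of Prtn3 was 0.0217, where 0.762% of all genes were called, while Cd177 in the same cluster was at -0.06 ± 0.11 (SE). Itgam, the CD11b gene used for the selection, averaged 1082 CPM in cluster 0 and 198 in cluster 6, Itgb2 717 CPM in cluster 3, and Pecam1 255 CPM in cluster 6.

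Over the 54 library and cluster sums, which share libraries and so are not independent, the genes with the pattern most like each of the 6 were taken by Pearson correlation of log2(CPM + 1) among 4771 genes. For Ly6g they were Mettl9 (0.925), 1700047M11Rik (0.916) and Dach1 (0.908), and for Cd177 Syne1 (0.977), Itgb2l (0.976) and Anxa1 (0.966). Ly6c2 was most like Flna (0.904), Lyz2 (0.896), the macrophage lysozyme, and Gyg (0.878). Ly6e was most like Abi3 (0.943), Zeb2os (0.937) and Rnase6 (0.934), and the genes like Ly6a included Adamts6 (0.959) and Rasgrp1 (0.958). For Ly6c1, with its few UMIs, the highest were Grn (0.587), Vps13c (0.545) and Gab3 (0.517). Between the 6 genes themselves, Ly6g and Cd177 reached 0.829 and Ly6e and Cd177 -0.847, Ly6a and Ly6e 0.853, and Ly6c2 reached 0.709 with Cd177 and 0.581 with Ly6g.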

How the data were processed

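Single-cell 3′ RNA sequencing (10x Genomics) had been run on CD11b+ bone marrow cells in 6 captures, 3 from the femur and 3 from the mandible. The count matrices deposited by the authors give unnormalised UMI counts for each gene in each barcode, 1 matrix per capture, from reads aligned to mm10. The methods and labels name Cell Ranger 7.0.1 and the matrix header 7.1.0, and use of strand in counting is not given in the sources used here. In the deposited metadata each retained cell has its counts of UMIs and genes, its percent of mitochondrial UMIs and other values such as the cluster and the SingleR label from the ImmGen reference. The authors' filter retained cells of 600 to 6000 genes with no more than 20 percent mitochondrial UMIs, which removes some doublets, and no doublet caller was run here. A deposited marker table with log2 fold changes and p-values of the clusters was not used. Integration by the authors set which cells form a cluster and did not alter these counts. No column of values was left unmapped to a library.

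For each library, counts were added up over the retained cells of each cluster, over all its cells, and over each ImmGen label of cluster 5 with at least 10 cells in every library. Sites were compared with the edgeR 4.0.16 quasi-likelihood test (R 4.3.3; TMM, default low-count filter, no covariate), with Benjamini-Hochberg adjustment over all genes of a fit and a threshold of 0.05. CPM are UMIs per 1000000 UMIs of a sum. Fold changes are mandible over femur on the log2 scale. The difference between label effects was tested on log2 CPM (prior count 2) with limma 3.58.1. Shares of cells were compared by exact 2-sided permutation over 20 assignments of the libraries. Cells were thinned to 1000 UMIs where shares are compared across depths. The edgeR step was run on simulated data with 200 changed genes, and the share of them recovered is not reported here. Alternatives were DESeq2 1.42.0, its size factors, no filter, each library left out and a block on the library number.

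Named were the 6 genes, family and CD177-partner genes averaging 10 CPM or more in a cluster, any listed gene past the threshold, and for each of the 6 the 3 genes of most similar pattern among those of 50 CPM or more, of which 1 is not reported here. The 6 genes and the lists were chosen with earlier results of these data known. Camp, Ltf, Ngp, Csf3r, Ccr2 and F13a1 belong to the marker lists and were singled out after their values were seen. Promoters came from RefSeq (GRCm38.p6), where 4 of the 6 genes matched, and positions and transcript ends from GENCODE vM21 (mm10). The UMI totals per library limit precision for rare transcripts, and intervals of counting error are not given for sums.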

Additional observations from a re-analysis of the deposited data

How the results depend on the processing

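The 6 genes gave 0 calls over the 9 clusters, beside 0.0284% of all genes. With no low-count filter there were 6 (Ly6g, Ly6c2, Ly6e and Cd177 in cluster 1, Ly6e in clusters 2 and 7), beside 1.06% of all genes. DESeq2 gave 3, beside 0.642%. With 1 library left out there were 0 to 1, beside 0.00697 to 0.145%, the 1 being Ly6e in cluster 7 without femur replicate 1. Cluster 5 labels gave 0 calls, beside 0.0644% of all genes. With no filter they gave 2 (Ly6a under the macrophage and monocyte labels), beside 1.37%, and by DESeq2 1, beside 0.898%. The family, GPI-anchor and CD177-partner lists gave 0 calls over the 9 clusters, against 8 with no filter and 3 by DESeq2 (Pigb in clusters 1 and 2, Prtn3 in cluster 4). With 1 library left out they gave 0 to 1, the 1 being Prtn3 without mandible replicate 1. The shares of all genes beside the list counts are those given above for the 9 clusters. For the 6 genes, all cells summed and the test between labels gave 0 calls under every alternative run; over all genes the test between labels called 0, against 1 without mandible replicate 1. The cause of these shifts was not tested.

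Library names share the number 6 or 7 across sites, and the labels do not say what it marks. Deviations of same-numbered libraries from their site means correlated at 0.29 to 0.50 in clusters 0 to 3, 0.0031 and 0.13 in cluster 4 and -0.63 and -0.17 in cluster 8. They correlated at 0.09 and 0.19 in cluster 5 and at 0.34 and 0.39 in its monocyte-labelled cells. With the number as a block in these 4 libraries, 11 calls were made for the 6 genes in the clusters, 2 for the cluster 5 labels and 16 for the lists. The 11 were Ly6g, Cd177 and Ly6c2 in clusters 1 and 2 and Ly6e in clusters 0, 1, 2, 3 and 7. The 2 were Ly6a and Ly6c2 in monocyte-labelled cells. The same 4 libraries without the block, an alternative added after the data were seen, gave 0 for the clusters, the labels and the lists. The block called 5.25% of all genes over the clusters and 2.43% over the labels, and the 4 libraries without it 0.00575% and 0%. The block leaves 1 residual degree of freedom and leaves out femur replicate 1 and mandible replicate 3. Under the block Ly6e in cluster 4 turned from 0.41 to -0.041 (-0.0033 in the 4 libraries without it), Ly6a over all cells from 0.06 to -0.28 (-0.28 without it) and Ly6c2 in DC-labelled cells from 0.33 to -0.89.

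With 1 library left out, 27 of the 66 log2 fold changes turned in sign for some library. Those that turned by a value beyond 1 SE in either fit had these ranges: Ly6e in cluster 0 from -0.60 to 0.023, Cd177 in cluster 5 from -0.38 to 0.29, Ly6c2 in cluster 6 from -0.53 to 0.48, Cd177 in cluster 6 from -0.60 to 0.13 and Ly6g in monocyte-labelled cells from -0.64 to 0.60, each turning without femur replicate 3, and Ly6a in cluster 6 from -0.60 to 0.54, turning without mandible replicate 1. Differences of the cluster 5 states ranged from -5.04 to 8.34 points for both genes, 2.26 to 6.67 for Ly6c2 alone, -2.40 to -2.02 for Ly6g alone and -8.34 to 1.59 for neither. Of 723 values under alternatives, 60 had the other sign than the reported one and 11 of these exceeded 1 SE. Of 54 differences in shares of cells, 10 moved by over 1 SD and 10 changed sign when cells were thinned. Of the 18 genes most like the 6, 6 were shared with Spearman correlation.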

Other observations

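Pigb, a mannosyltransferase of GPI-anchor synthesis chosen here after its values were seen, lay lower in all 3 mandible libraries than in all 3 femur libraries of clusters 1 and 2, as did 16.9% and 8.41% of all genes tested there. In cluster 1 Pigb measured 21.5, 30.1 and 30.2 CPM in femur replicates 1 to 3 and 18.1, 11.9 and 11.6 CPM in mandible replicates 1 to 3, a log2 fold change of -0.83 ± 0.21 (SE) with an edgeR adjusted p of 0.155, and in cluster 2 21.7, 28.1 and 21.8 CPM in the femur libraries and 15.1, 13.6 and 9.22 CPM in the mandible libraries, at -0.86 ± 0.21 (SE) with an adjusted p of 0.154. In cluster 0, where its libraries overlapped, the log2 fold change of Pigb was -0.09 ± 0.10 (SE). Ly6g and Cd177 were higher and Ly6e lower in the mandible libraries of cluster 1, without overlap.

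In cluster 0, where Ly6g and Cd177 were highest, their site values were close. Ly6g measured 729, 771 and 745 CPM in the femur libraries and 858, 798 and 724 CPM in the mandible libraries, at 0.13 ± 0.13 (SE), and Cd177 1265, 1019 and 999.9 CPM in the femur libraries and 988, 1022 and 1073 CPM in the mandible libraries, at -0.04 ± 0.12 (SE). Ly6c2 there was at 0.07 ± 0.12 (SE). All 3 overlapped between sites.

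Cluster 6, with B cell genes, also held neutrophil transcripts. Its 8 neutrophil markers summed to 31703 to 129952 CPM in the femur libraries and 52928 to 81281 CPM in the mandible libraries, and its 138 cells labelled neutrophils had a median of 10529.5 UMIs, against 3894.5 in the 858 B-labelled cells. The Ly6g and Cd177 levels given for cluster 6 as a whole include those cells.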
